A study of Solanum tuberosum with 9 samples.

Results

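Genes whose names point to the cuticle or to lipid transfer were followed in leaves of diploid potato (Solanum tuberosum hybrids). The members were chosen by words in the product name that the deposited tables give for each gene, and 141 of the 24169 genes in these tables matched. They comprise 71 GDSL esterases/lipases, 28 non-specific lipid-transfer proteins (nsLTPs), 19 3-ketoacyl-CoA synthases (KCS), 11 ECERIFERUM (CER) proteins, 7 reductases and dehydratases of very-long-chain fatty acid elongation, and 5 omega-hydroxypalmitate O-feruloyl transferases. The word cutin, also searched, was in none of the names. A name that ends in -like was given by similarity, so neither it nor a family name such as GDSL fixes the role of the potato protein.

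The study asked which genes differ between potato plants that all have leaves rich in glycoalkaloids but whose leaf extracts act differently on mustard seedlings. The F' bulk came from plants whose extracts stimulated mustard growth, the B' bulk from plants of low phytotoxicity and the A' bulk from plants of high phytotoxicity. All plants belonged to hybrid population 15-1, a cross between the diploid hybrid DG 88-89 and the wild species S. chacoense, were untreated, grew in greenhouse pots and were sampled at full flowering. Each bulk mixed the leaves of 3 individuals, and 3 mRNA libraries were sequenced for each of the 3 bulks. The groups therefore differ in genotype, and where the 3 libraries of a group were separated is not stated, so the p-values measure only the spread between these libraries, which may be technical.

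The cuticle is the water-repellent outer layer of the leaf epidermis, made of the polyester cutin and of waxes. Wax precursors are very-long-chain fatty acids made by an elongase complex of several enzymes, a KCS that condenses, a ketoacyl reductase, a dehydratase and an enoyl reductase, and in Arabidopsis CER1 and CER3 turn the products into alkanes. Cutin monomers are joined outside the cell by GDSL enzymes, of which tomato cutin synthase is the best known, while feruloyl transferases add the aromatic ferulate to the aliphatic chains of suberin, the related polymer of the potato tuber skin. Lipid-transfer proteins are small, secreted, disulfide-bonded proteins that hold a lipid in a central cavity.

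The libraries held 21199110 to 22517178 counts in genes. Replicate libraries differed by more than sampling noise, so none was a copy of another. Levels are given as normalized counts, made by bringing all 9 libraries to 1 common size with TMM factors, and since they are not divided by transcript length they are compared between groups only, never between genes. Differences are Log2FC with the standard error (SE) from edgeR's quasi-likelihood test, and the FDR is its Benjamini-Hochberg adjusted p over all genes tested. A gene was called at FDR under 0.05. Genes with too few counts were not tested. A gene with few counts in a group could be tested through the other group alone. Its call could then run only toward that other group. For a single value, 3 against 3 libraries allow an exact two-sided permutation p no lower than 0.1. The leaf markers, 39 Rubisco small chain and chlorophyll a-b binding genes, were all detected, but their summed counts were 2102000 to 2534000 in F', 1578000 to 1887000 in B' and 2834000 to 3651000 in A' libraries, and 32 of 39 were lower in F' and 35 of 39 lower in B', both against A'. The 11 epidermis markers summed to 827.8 to 972.2 in F', 943.8 to 1031 in B' and 802.1 to 1008 in A' libraries and overlapped between the groups. Of those tested, 2 of 7 were higher and 0 lower in F' vs A', and 1 of 8 was higher and 0 lower in B' vs A'. In F' vs B' 1 was higher and 2 lower of 7. Over all genes 35.6%, 32.9% and 30% were called in the same order. The part of the leaf and epidermis markers in the results was not tested. In bulk leaf, fewer cells of a type and less RNA per cell cannot be told apart.

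More members fell than rose in F' leaves. Of the 98 members tested in F' vs A', 46 were lower and 18 higher, so 65.3% were called, against 35.6% of all 19132 genes tested, where 18.2% were lower and 17.5% higher. The median Log2FC of the members was −0.41 and that of all genes 0.02. GDSL genes gave 26 of the lower and 6 of the higher members here. In B' vs A' the split was nearer even, with 30 lower and 19 higher of 97 tested (50.5% called). Of these, GDSL genes gave 17 of the lower and 5 of the higher. The background there was 32.9% of 19059 genes, 16.5% lower and 16.4% higher, and the median of the members was −0.06 against 0.02 over all genes. In the direct comparison of F' vs B', 37 members were lower in F' and 20 higher of 95 tested (60% called), against 30% of 19308 genes, where 16.3% were lower and 13.7% higher. The median there was −0.29 for the members and −0.000212 for all genes. A Log2FC of at least 2 in size was reached by 6 members that rose and 11 that fell in F' vs A', where the background is 3.56% of all genes, by 2 that rose and 2 that fell in B' vs A' (background 3.41%), and by 5 that rose and 6 that fell in F' vs B' (background 3.48%). The comparisons with A' share the A' libraries, so their counts are not independent. Of the 141 members, 38 had too few counts for any test or were absent from the tables.

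**Figure D1:**
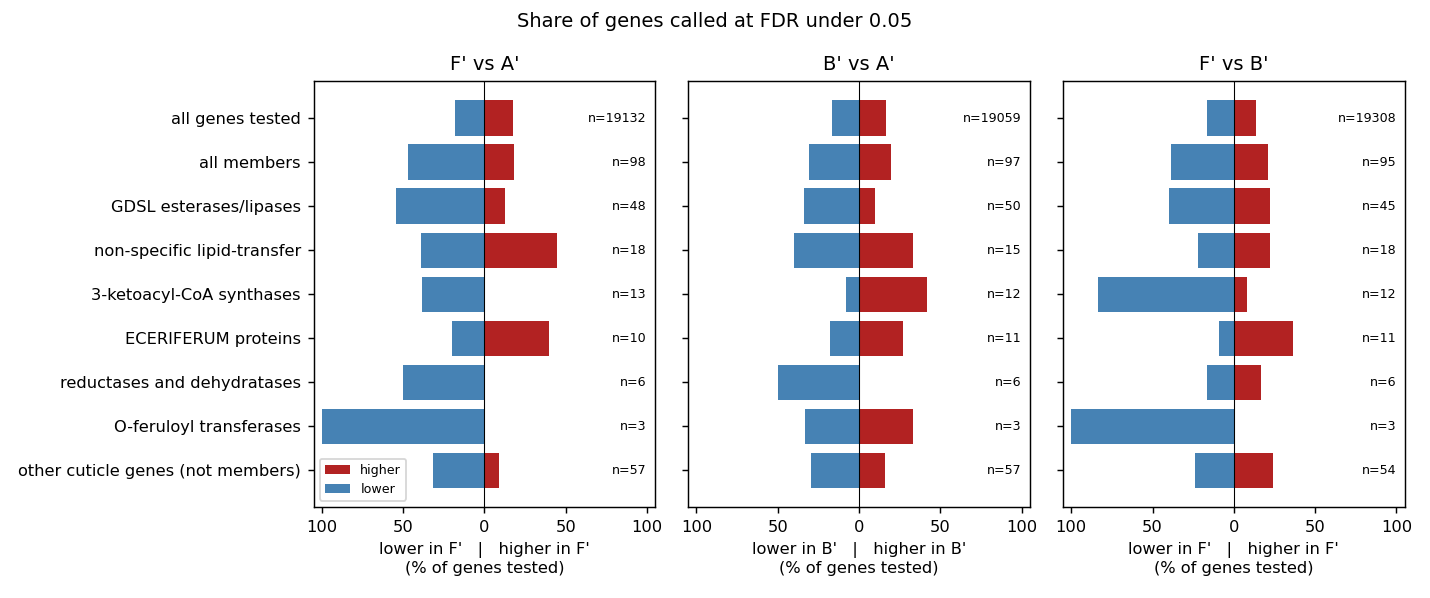
Each panel gives a comparison, with the share of tested genes that were lower (bars to the left) and higher (bars to the right) in the first-named group at FDR under 0.05, in percent, and the number tested (n). Bars for all members reach further to the left than those for all genes tested in all 3 panels, and the KCS bar in F' vs B' lies almost wholly on the lower side.

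The normalized counts were also summed by family in each library. For the GDSL genes the sum was 12468 to 13321 in F', 15176 to 19014 in B' and 23346 to 25591 in A' libraries. The 3 groups did not overlap for this sum, with F' lowest. A large part of the gap between F' and A' came from APG-like LOC102601783, given below. The 5 feruloyl transferases together gave 468 to 582 in F', 1336 to 1981 in B' and 2029 to 2173 in A' libraries, again without overlap. Most of this sum in every library came from LOC102578335, given below. The order of B' below A' rests on it, since LOC102591601 was higher in B' vs A'. The lipid-transfer sum was 13263 to 15546 in F', 21886 to 27759.5 in B' and 13242 to 15932 in A' libraries, and here B' stood above the other two. Most of the B' sum came from the locus LOC102598620, given below. Without it, the rest of this family summed lower in every F' and B' library than in any A' library. All members together summed to 40632 to 44797 in F', 59599 to 63143 in B' and 56705 to 61860.5 in A' libraries, where F' lay below both other groups and B' and A' overlapped. One nsLTP locus, LOC102598620, added 6987 to 8272 counts in F' libraries, 14417 to 21522 in B' libraries and 1469.6, 1587 and 1524 in A' libraries. Without this locus, left out after its values were seen, the other members summed to 33645 to 37778 in F', 38078 to 46588 in B' and 55180.3 to 60391 in A' libraries. The groups no longer overlapped, so B' stood below A' in the total only with that locus removed.

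The condensing enzymes (KCS) set the chain length of the fatty acids that are elongated. Of 12 tested in F' vs B', 10 were lower and 1 higher in F', with a median Log2FC of −1.02 against −0.000212 over all genes, of which 16.3% were lower and 13.7% higher. The higher one was LOC102593540 (FDR = 0.0189), a call lost without F' library 2 (FDR 0.0637). In F' vs A' the counts were 5 lower and 0 higher of 13, where 18.2% of all genes were lower and 17.5% higher, so the share called (38.5%) was near the 35.6% over all genes. In B' vs A' 5 were higher and 1 lower of 12, where 16.4% of all genes were higher and 16.5% lower. The largest change was at KCS6-like LOC102579720, on a scaffold placed on chromosome 5 in SolTub_3.0, which had 14.9, 18.1 and 18.4 in F' libraries, 98.1, 82.1 and 90.6 in B' libraries and 138, 139 and 122 in A' libraries. All F' libraries lay far below the rest, and B' lay below A' in every library. Log2FC was −2.94 ± 0.22 in F' vs A' (FDR = 2.92e-07) and −2.40 ± 0.24 in F' vs B' (FDR = 4.76e-05), while −0.55 ± 0.17 in B' vs A' (FDR = 0.0238) lost its call without B' library 2 or any 1 A' library (highest FDR 0.101). KCS6 itself, annotated CER6, is the main condensing enzyme for leaf wax in Arabidopsis, and it had 2729, 3077 and 2581 in F' libraries, 3450.3, 3180.2 and 2819 in B' libraries and 2992, 3271 and 3011 in A' libraries, overlapping between groups and not called in any comparison.

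Other KCS loci were also higher in B' than in F' and were called in that comparison. KCS11-like LOC102594691 had 37.4, 38.3 and 37.7 in F' libraries, 162, 163 and 145 in B' libraries and 69.1, 51.2 and 69.0 in A' libraries, with B' above both other groups without overlap. It was 1.32 ± 0.18 in B' vs A' (FDR = 0.000215) and −2.06 ± 0.18 in F' vs B' (FDR = 1.88e-05). The call in F' vs A' (−0.72 ± 0.24, FDR = 0.028) was lost without F' library 1 or 3 or A' library 1 or 3 (highest FDR 0.113). KCS1 LOC102603796 had 43.9, 19.2 and 34.8 in F' libraries, 96.2, 65.3 and 73.3 in B' libraries and 32.8, 39.2 and 38.0 in A' libraries, 1.10 ± 0.24 in B' vs A' and −1.26 ± 0.31 in F' vs B' (FDR = 0.00427 and 0.0118). B' was again highest at KCS20-like LOC102590104, which had 80.3, 113 and 68.6 in F' libraries, 253, 209 and 185 in B' libraries and 103, 124 and 106 in A' libraries (B' vs A' 0.96 ± 0.17, FDR = 0.00113, and F' vs B' −1.32 ± 0.21, FDR = 0.00102), and at KCS20-like LOC102584033, with Log2FC 0.82 ± 0.16 in B' vs A' and −0.87 ± 0.17 in F' vs B'. In Arabidopsis, KCS2 and KCS20 serve suberin and wax. KCS10 LOC102596949, the homologue of FIDDLEHEAD in Arabidopsis, fell by 0.78 in F' vs A' and by 0.66 in F' vs B' on the log2 scale, as did KCS11-like LOC102600830 with −0.78 ± 0.14 and −1.17 ± 0.12.

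The other steps of the elongase moved less evenly. The ketoacyl reductase LOC102588615 and the dehydratase PASTICCINO 2 (LOC102591777) were not called in any comparison, and their values overlapped between all groups. The enoyl reductase LOC102581846 had 2148, 2483 and 2219.6 in F' libraries, 3037, 3071 and 2484 in B' libraries and 3946, 3729 and 3779 in A' libraries, below A' in every F' and B' library, with −0.73 ± 0.11 in F' vs A' (FDR = 0.000211). A pair of enoyl reductase-like loci on 1 scaffold placed on chromosome 11 differed in pattern. LOC102599277 had 76.6, 68.1 and 88.9 in F' libraries, 7.40, 15.9 and 14.7 in B' libraries and 167, 144 and 159 in A' libraries, so that B' was lowest and A' highest without overlap. It was −3.61 ± 0.26 in B' vs A' (FDR = 1.93e-06), −0.99 ± 0.17 in F' vs A' (FDR = 0.000486) and 2.60 ± 0.31 in F' vs B' (FDR = 0.000155). LOC102600822 had 18.7, 19.2 and 28.0 in F' libraries, 42.6, 52.2 and 55.2 in B' libraries and 58.5, 41.4 and 42.6 in A' libraries, and here F' was lowest, with −1.09 ± 0.30 in F' vs A' (FDR = 0.0109) and −1.19 ± 0.28 in F' vs B' (FDR = 0.00953). Loci with the same product may be near-identical copies between which reads can be divided, so such pairs are uncertain as separate values.

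The ECERIFERUM genes changed in both directions, 4 higher and 2 lower of 10 tested in F' vs A', 3 higher and 2 lower of 11 in B' vs A', and 4 higher and 1 lower of 11 in F' vs B'. The shares called were 60% in F' vs A' (35.6% of all genes), 45.5% in B' vs A' (32.9%) and 45.5% in F' vs B' (30%), and over all genes calls also ran in both directions. The largest rise among them was at CER1-like LOC102595750, which had 346, 463 and 301 in F' libraries, 71.2, 46.6 and 64.7 in B' libraries and 28.1, 17.4 and 17.3 in A' libraries. The 3 groups did not overlap, with F' highest and A' lowest. Log2FC was 4.15 ± 0.23 in F' vs A' (FDR = 1.59e-08), 1.55 ± 0.29 in B' vs A' (FDR = 0.00195) and 2.59 ± 0.21 in F' vs B' (FDR = 1.54e-05). The next locus on the same unplaced scaffold, CER1-like LOC102595425, lies 6833 bases further on, with no listed gene between. It had 46.7, 44.7 and 57.0 in F' libraries, 14.8, 10.3 and 17.2 in B' libraries and 9.37, 4.35 and 1.15 in A' libraries, the same order of groups, and it rose in F' vs A' (3.31 ± 0.45, FDR = 6.36e-05) and F' vs B' (1.79 ± 0.30, FDR = 0.00151). Its A' libraries held few counts, so the size of the rise in F' vs A' is uncertain. In that comparison it passed the count filter through F' alone, so the call could only be a rise. In contrast, CER1-like LOC102599091 had 502, 534 and 504 in F' libraries, 392, 361 and 375 in B' libraries and 724, 681 and 694 in A' libraries and was lower in both comparisons with A' (F' −0.43 ± 0.11, FDR = 0.00645, and B' −0.89 ± 0.11, FDR = 0.000102). CER26, which acts in the wax elongation of Arabidopsis leaves, was not called in any comparison.

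The loci named after CER3, the partner of CER1, moved in opposite directions. CER3 LOC102583592 had 153, 125 and 113 in F' libraries, 508, 483 and 633 in B' libraries and 248, 276 and 289 in A' libraries, highest in B' and lowest in F' with no overlap. Log2FC was 1.00 ± 0.14 in B' vs A' (FDR = 0.00024), −1.04 ± 0.15 in F' vs A' (FDR = 0.000126) and −2.06 ± 0.16 in F' vs B' (FDR = 1.18e-05). CER3-like LOC102594285 had 672, 734 and 649 in F' libraries, 262, 245 and 228 in B' libraries and 343, 444 and 436 in A' libraries, which is the reverse order, highest in F' and lowest in B' with no overlap. It was −0.73 ± 0.14 in B' vs A' (FDR = 0.00207), 0.76 ± 0.13 in F' vs A' (FDR = 0.000391) and 1.48 ± 0.12 in F' vs B' (FDR = 1.17e-05). The sum over the family was 3069 to 3606 in F', 2587 to 2699.9 in B' and 2892 to 3070.3 in A' libraries.

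**Figure D2:**
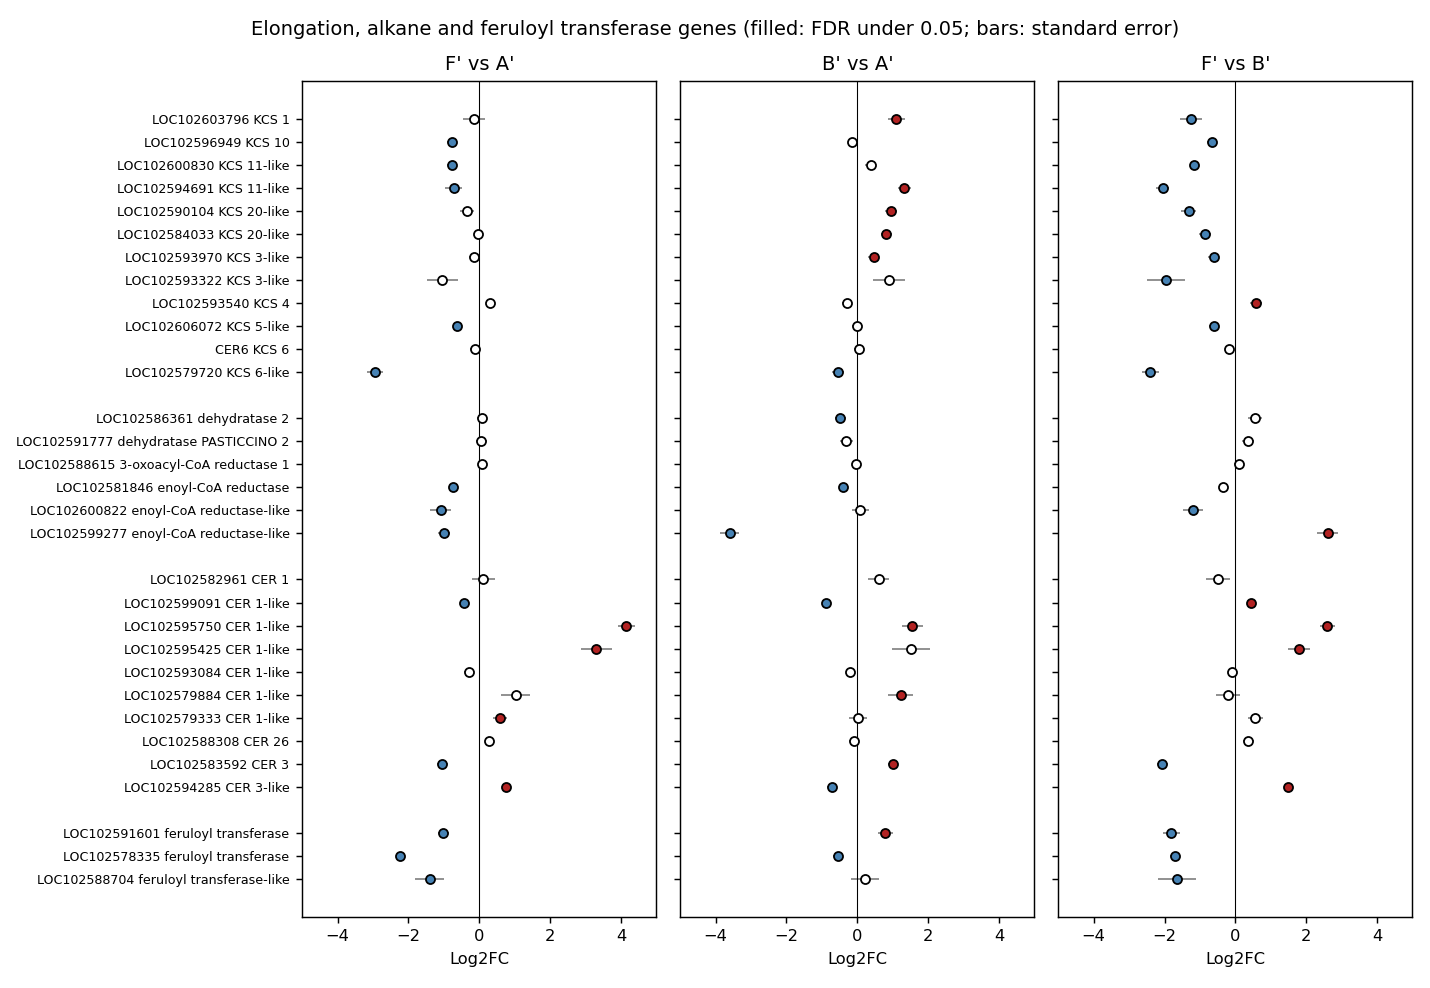
Log2FC (horizontal axis) of the elongation, ECERIFERUM and feruloyl transferase genes tested in all 3 comparisons, 1 gene per row, with bars for the standard error. Filled points passed FDR under 0.05, red for higher and blue for lower. CER1-like LOC102595750 and LOC102595425 lie to the right in F' vs A', and CER3 and CER3-like lie on opposite sides of 0 in every panel.

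The feruloyl transferases, named for their product in suberin, fell in F'. Each of the 3 loci with enough counts was lower in F' vs A' and in F' vs B'. Over all genes, 18.2% were lower in F' vs A' and 16.3% in F' vs B'. The other 2 loci had too few counts or were not listed. LOC102578335, on a scaffold placed on chromosome 11, had 389, 433 and 327 in F' libraries, 1384, 1294 and 1043 in B' libraries and 1913, 1811 and 1732 in A' libraries. F' libraries lay far below both other groups, and Log2FC was −2.23 ± 0.13 in F' vs A' (FDR = 2.11e-08), −0.55 ± 0.13 in B' vs A' (FDR = 0.00714) and −1.70 ± 0.15 in F' vs B' (FDR = 2.33e-05). LOC102591601 had 106, 145 and 122 in F' libraries, 546, 474 and 278 in B' libraries and 233, 256 and 268 in A' libraries. It fell by 1.01 in F' vs A' on the log2 scale (FDR = 0.000158) and by 1.81 in F' vs B' (FDR = 0.000342), and it was higher in B' vs A' (0.78 ± 0.21, FDR = 0.0146), a call lost without A' library 1 (highest FDR 0.0595). The third, LOC102588704, had 8.41, 4.26 and 14.5 in F' libraries, 48.1, 22.4 and 15.5 in B' libraries and 23.4, 22.9 and 27.6 in A' libraries, and its calls were lost without F' library 1 or A' library 3 (highest FDR 0.0761) in F' vs A' and without F' library 1 or 2 or B' library 1 or 2 (highest FDR 0.192) in F' vs B'.

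GDSL enzymes form the largest group. In F' vs A', 26 of 48 tested were lower and 6 higher (median Log2FC −0.52), against 18.2% lower and 17.5% higher over all genes. In B' vs A' 17 of 50 were lower and 5 higher (median −0.30), against 16.5% lower and 16.4% higher over all genes. In F' vs B' 18 of 45 were lower and 10 higher, against 16.3% and 13.7%. Among the genes lower in both comparisons with A', 3 had too few counts in F' vs B', so they were tested through A'. Some of the lower ones are named after Arabidopsis At5g33370, a cutin synthase. LOC102582015 had 6.54, 21.3 and 7.73 in F' libraries, 416, 342 and 230.3 in B' libraries and 708, 809.9 and 651 in A' libraries, with F' far below and A' above B' in every library. Log2FC was −5.94 ± 0.25 in F' vs A' (FDR = 1.52e-09), −1.13 ± 0.19 in B' vs A' (FDR = 0.000806) and −4.83 ± 0.37 in F' vs B' (FDR = 1.09e-05). The related locus LOC102606325, on a scaffold placed on chromosome 6 in SolTub_3.0, had 62.6, 95.8 and 77.3 in F' libraries, 1179.7, 1033 and 857 in B' libraries and 682, 637 and 656 in A' libraries. F' was again lowest and B' highest, and Log2FC was −3.06 ± 0.15 in F' vs A' (FDR = 4.67e-09), 0.64 ± 0.13 in B' vs A' (FDR = 0.00319) and −3.72 ± 0.19 in F' vs B' (FDR = 1.57e-06). A further At5g33370-like locus, LOC102599928, had 47.6, 75.6 and 34.8 in F' libraries, 88.8, 66.2 and 49.2 in B' libraries and 221, 270.0 and 224 in A' libraries and was lower in both groups than in A', by 2.18 for F' and 1.80 for B' on the log2 scale, with F' and B' overlapping.

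Other GDSL loci showed several patterns. APG-like LOC102601783 had 1291, 1709 and 1321 in F' libraries, 5537, 4685 and 3446 in B' libraries and 8319.8, 7513 and 7672 in A' libraries. The groups did not overlap and stood in the order F', B', A' from low to high, with −2.43 ± 0.14 in F' vs A' (FDR = 1.71e-08), −0.78 ± 0.16 in B' vs A' (FDR = 0.00319) and −1.67 ± 0.18 in F' vs B' (FDR = 9.9e-05). APG-like LOC102602116, its neighbour 24468 bases away with no listed gene between, was −2.07 ± 0.16 in F' vs A' and −1.83 ± 0.20 in B' vs A'. At2g04570-like LOC102586444 had 60.7, 60.7 and 48.3 in F' libraries, 123, 118 and 61.2 in B' libraries and 362, 317 and 289 in A' libraries and was −2.50 ± 0.16 in F' vs A' (FDR = 7.32e-08) and −1.67 ± 0.23 in B' vs A' (FDR = 0.000185). The same direction in both comparisons was found for At5g45910-like LOC102592574 (−2.70 in F' and −1.65 in B' vs A'). Lower in F' and higher in B' were At5g45670-like LOC102606338, which had 402, 452 and 378 in F' libraries, 1573, 1382 and 1424 in B' libraries and 692, 735 and 736 in A' libraries (−0.80 in F' and 1.02 in B' vs A'), and At5g45670-like LOC102580776, which had 163, 109 and 167 in F' libraries, 737, 665 and 569 in B' libraries and 457, 505 and 458 in A' libraries (−1.68 in F' and 0.48 in B' vs A'). The call at LOC102580776 in B' vs A' was lost without B' library 1 or A' library 3 (highest FDR 0.0633).

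Further GDSL genes were highest in F' or in B', or lowest in B'. The largest rise of this family in F' vs A' was at LOC102582183 (FDR = 0.00355). It had too few counts in B' vs A', so it was tested through F'. EXL3-like LOC102603803 had 341, 252 and 291 in F' libraries, 84.2, 91.4 and 117 in B' libraries and 101, 112 and 97.8 in A' libraries, with F' above both other groups, and was 1.52 ± 0.16 in F' vs A' (FDR = 5.23e-06) and 1.58 ± 0.18 in F' vs B' (FDR = 0.000109). GDSL 2-like LOC102597571 had 182, 197 and 181 in F' libraries, 254, 300.3 and 325 in B' libraries and 122, 108 and 94.3 in A' libraries, and both F' (0.80 ± 0.15, FDR = 0.00113) and B' (1.45 ± 0.16, FDR = 4.14e-05) were above A'. B' libraries were lowest for At3g48460 (LOC102578790), with 389, 447 and 358 in F' libraries, 208, 199.6 and 139.7 in B' libraries and 459, 491 and 467 in A' libraries, −1.37 ± 0.16 in B' vs A' (FDR = 5.5e-05) and 1.12 ± 0.17 in F' vs B' (FDR = 0.000756). At1g54790 (LOC102587871) and At1g09390-like LOC102592882 were lower in B' vs A' as well, by 1.56 and 1.29 on the log2 scale.

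**Figure D3:**
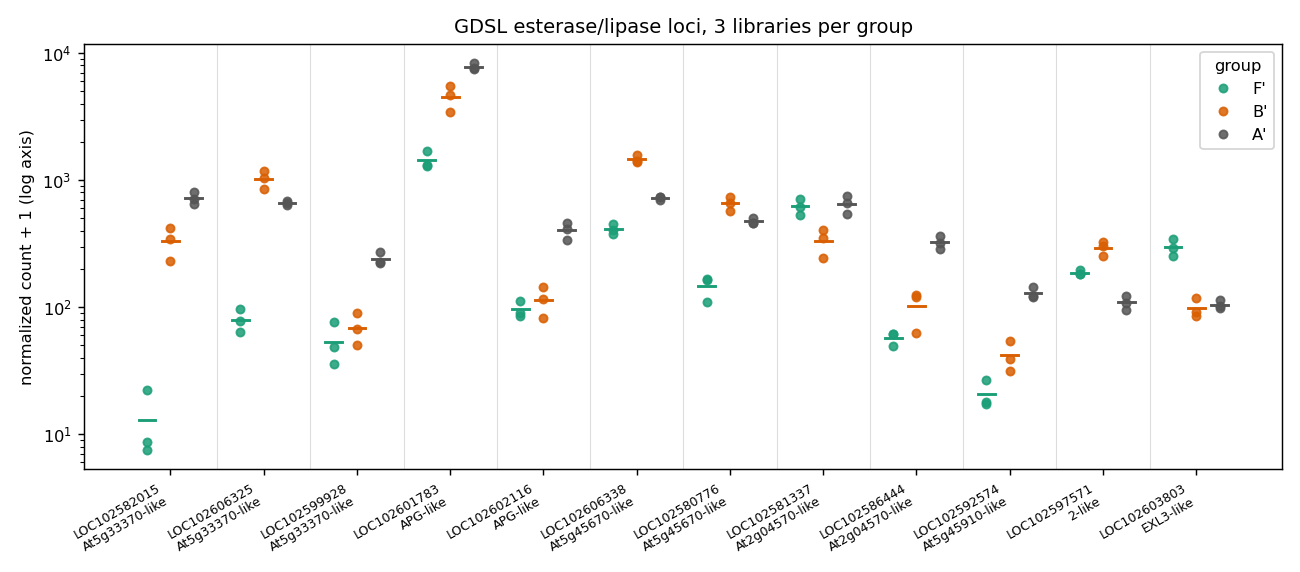
Normalized counts plus 1 on a log axis for 12 GDSL loci, with 1 point per library in F' (green), B' (orange) and A' (grey) and a line at the group mean. F' points lie lowest for At5g33370-like LOC102582015 and LOC102606325 and for APG-like LOC102601783.

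Lipid-transfer proteins changed in both directions. In F' vs A', 8 of 18 tested were higher and 7 lower. Among the 8, 2 had too few counts in B' vs A' and were tested here only through F'. In B' vs A', 5 of 15 were higher and 6 lower, and in F' vs B' 4 of 18 were higher and 4 lower. This made 83.3% called in F' vs A' (35.6% of all genes), 73.3% in B' vs A' (32.9%) and 44.4% in F' vs B' (30%). nsLTP2-like LOC102598620 had 6987, 7019 and 8272 in F' libraries, 14417, 18456 and 21522 in B' libraries and 1469.6, 1587 and 1524 in A' libraries. All F' and B' libraries stood above all A' libraries, and B' above F'. Log2FC was 2.29 ± 0.12 in F' vs A' (FDR = 1.13e-08), 3.58 ± 0.16 in B' vs A' (FDR = 7.11e-08) and −1.30 ± 0.16 in F' vs B' (FDR = 0.000173).

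This locus is the last of 6 nsLTP genes that follow each other on a scaffold of SolTub_3.0 with no other listed gene between them, 11204 to 23246 bases apart. Its neighbours did not all move with it. nsLTP2 LOC102597633, the third in the row, had 989, 1078 and 1169.7 in F' libraries, 1622, 1716 and 1294 in B' libraries and 3047, 2948 and 2668 in A' libraries, so it was lower in both groups (−1.41 ± 0.12 in F' vs A', FDR = 7.59e-07, and −0.90 ± 0.13 in B' vs A', FDR = 0.000346). The loci at the start of the row were higher. LOC102596984 had 43.0, 53.2 and 60.9 in F' libraries, 77.7, 57.8 and 87.1 in B' libraries and 26.9, 33.7 and 18.4 in A' libraries and was 1.49 ± 0.28 in B' vs A' (FDR = 0.00179), and LOC102597309 had 48.6, 44.7 and 70.5 in F' libraries, 33.3, 34.5 and 34.5 in B' libraries and 17.6, 19.6 and 20.7 in A' libraries and was 1.51 ± 0.29 in F' vs A' (FDR = 0.00118). LOC102597952 had 63.5, 77.7 and 45.4 in F' libraries, 93.5, 89.5 and 104 in B' libraries and 246, 68.6 and 136 in A' libraries, overlapping between F' and A'. It was lower in F' vs A' (−1.26 ± 0.35, FDR = 0.0131), a call lost without F' library 1 or 3 or A' library 1 (highest FDR 0.0915). LOC107059031 was highest in A' by mean count and had too few counts for a test. These loci have similar names, and how the authors' counting divided reads between similar copies is not given in the sources used here.

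Another run of 3 neighbouring nsLTP2-like loci, on a scaffold placed on chromosome 10, was higher in F'. LOC102588710 had 65.4, 78.8 and 72.4 in F' libraries, 2.78, 8.39 and 5.17 in B' libraries and 3.51, 3.27 and 2.30 in A' libraries, and was higher in F' vs A' (FDR = 4.29e-07) and F' vs B' (3.69 ± 0.36, FDR = 4.23e-05). Its A' libraries held only 3, 3 and 2 raw counts, so in place of a fitted value the ratio of summed F' to A' counts, scaled for library size, is given as 23.8 (95% exact interval 11.8 to 55.7, counting error only). LOC102589363, 2213 bases from it, had 34.6, 41.5 and 47.3 in F' libraries, 7.40, 11.2 and 3.45 in B' libraries and 4.68, 1.09 and 5.75 in A' libraries, with 3.40 ± 0.45 in F' vs A' and 2.47 ± 0.41 in F' vs B' (FDR = 4.9e-05 and 0.00127). The A' libraries of LOC102589363 held only 4, 1 and 5 raw counts. Its ratio of summed F' to A' counts was 10.8 (95% exact interval 5.70 to 23.2, counting error only). The third, LOC102589043, had 4.67, 12.8 and 21.2 in F' libraries, 0.925, 0 and 1.72 in B' libraries and 2.34, 1.09 and 0 in A' libraries and was not tested for lack of counts. All F' libraries lay above all others at these loci. LOC102588710 and LOC102589363 passed the count filter only through F', so their calls could only be rises and add little to these values.

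The nsLTP1-like locus LOC102587043 had 3077, 4046 and 3397 in F' libraries, 3183, 3316 and 2309.8 in B' libraries and 7961, 6185 and 6406 in A' libraries. It was lower in F' (−0.95 ± 0.14, FDR = 0.000127) and in B' (−1.22 ± 0.16, FDR = 0.000147) vs A', with F' and B' overlapping, and nsLTP1-like LOC102598725 was lower too, with −0.56 ± 0.13 in F' and −1.08 ± 0.15 in B' vs A'. AKCS9-like LOC102584024 had 349, 659.8 and 573 in F' libraries, 699, 732 and 704 in B' libraries and 344, 249 and 273 in A' libraries and was higher in F' (0.88 ± 0.20, FDR = 0.00338) and B' (1.31 ± 0.14, FDR = 2.71e-05). Among the genes named after Arabidopsis xylogen-type lipid-transfer proteins, At2g13820 LOC102600748 had 29.9, 39.4 and 39.6 in F' libraries, 68.5, 101 and 104 in B' libraries and 29.3, 12.0 and 12.7 in A' libraries and was 2.35 ± 0.34 in B' vs A' (FDR = 0.000302), whereas At5g64080 LOC102579444 was lower in B' (−0.91 ± 0.19, FDR = 0.00301).

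**Figure D4:**
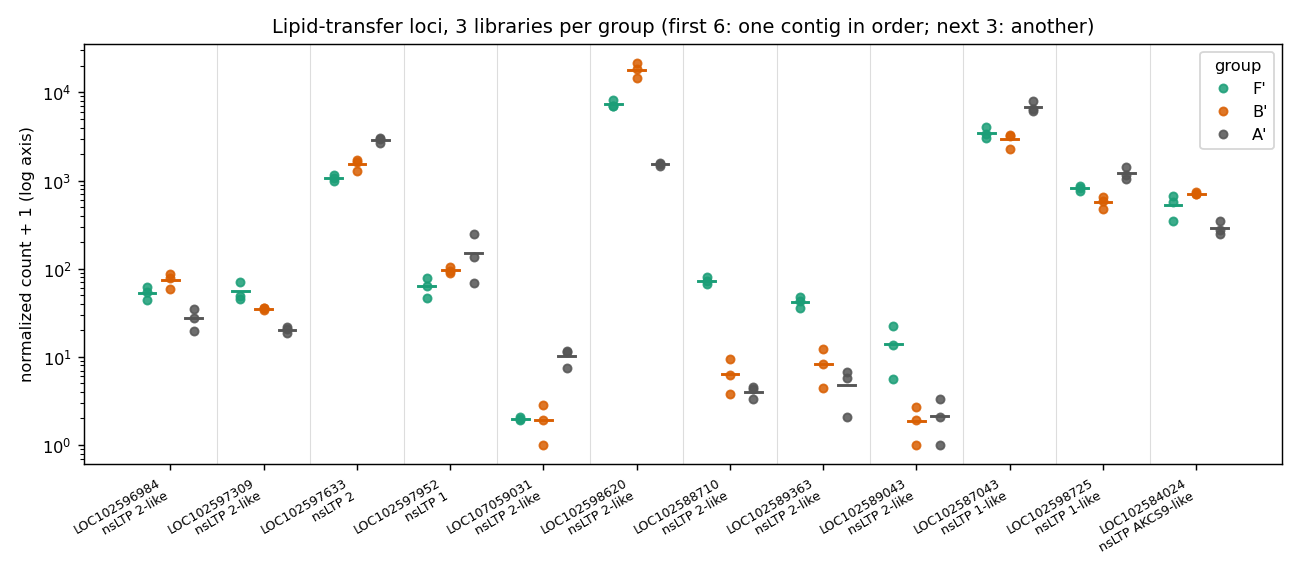
Normalized counts plus 1 on a log axis for 12 lipid-transfer loci, 1 point per library in F' (green), B' (orange) and A' (grey) with a line at the group mean. The first 6 lie in order along a scaffold and the next 3 along another. F' and B' points for LOC102598620 lie above the A' points, while for LOC102597633 they lie below.

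Genes of the pathway outside these families were chosen by product words. Of 80 such genes, 57 were tested in F' vs A', of which 18 were lower and 5 higher (40.4% called, near the 35.6% of all genes). By direction, 31.6% were lower and 8.77% higher, against 18.2% and 17.5% of all genes. In B' vs A' 17 of 57 were lower and 9 higher (45.6% called, against 32.9% of all genes). This was 29.8% lower and 15.8% higher, against 16.5% and 16.4%. In F' vs B' 13 of 54 were lower and 13 higher (48.1%, against 30%). Each direction held 24.1%, against 16.3% lower and 13.7% higher. The words also matched 9 products that were set aside as outside cuticle formation. Others that they matched, such as peroxisomal or chloroplastic acyl-CoA synthetases and the CYP94 family, need not serve the cuticle either. The genes named from this list were picked after their values were seen. The acyltransferase GPAT6 (LOC102603688), which joins fatty acids to glycerol for cutin, had 447, 611 and 475 in F' libraries, 429, 381 and 267 in B' libraries and 1454, 1229 and 1159 in A' libraries and was lower in both groups (−1.31 ± 0.14 in F' and −1.83 ± 0.17 in B' vs A', FDR = 7.16e-06 and 1.25e-05). HOTHEAD LOC102602541, an oxidoreductase of cutin precursors, had 235, 334 and 247 in F' libraries, 501, 406 and 267 in B' libraries and 927, 969 and 887 in A' libraries and was likewise lower (−1.76 ± 0.14 in F' and −1.24 ± 0.19 in B' vs A'). CYP77A2 LOC102605728, of a P450 family that hydroxylates cutin monomers, had 77.5, 80.9 and 56.0 in F' libraries, 325, 300.3 and 233 in B' libraries and 399, 303 and 278 in A' libraries, with F' below the rest (−2.18 ± 0.19 in F' vs A' and −2.01 ± 0.19 in F' vs B', FDR = 8.48e-07 and 4.31e-05), and it was not called in B' vs A'. Not all loci of these enzyme families moved this way, since CYP77A1 LOC102604467 was not called in any comparison, and HOTHEAD-like LOC102588108, lower in B' vs A' (−1.32 ± 0.25, FDR = 0.00184), was not called in F' vs A'. The lipid exporter ABCG11-like LOC102602737 had 2309, 2203 and 1975 in F' libraries, 695, 654 and 549 in B' libraries and 1488, 1453 and 1491 in A' libraries, higher in F' (0.56 ± 0.11) and lower in B' (−1.22 ± 0.12) vs A', and the wax ester synthase WSD1-like LOC102602717 had 161, 183 and 184 in F' libraries, 97.2, 97.9 and 154 in B' libraries and 38.6, 45.7 and 35.7 in A' libraries, higher in F' (2.14 ± 0.18) and B' (1.54 ± 0.24) vs A'. Other loci with these names moved otherwise. WSD1-like LOC102580972 was lower in F' vs A' (FDR = 0.0017), and WSD1-like LOC102586143 was not called in any comparison. ABCG11-like LOC102600699 was not called in F' vs A'. Opposite to LOC102602737, it was lower in F' vs B' (FDR = 0.00447) and higher in B' vs A' (FDR = 0.0266). The call in B' vs A' was lost without B' library 1 or 2 or A' library 1 or 3 (highest FDR 0.0881).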

How the data were processed

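Poly(A) RNA of 9 leaf libraries (3 per bulk, F', B' and A') was prepared with a directional kit and read as paired ends on a BGISEQ-500. The authors deposited raw counts per gene in tables for A' vs B' and A' vs F', beside normalized counts and their own fold changes and p-values, which were not used. Submitters' processing notes name Bowtie2 2.1.0, TopHat2 2.0.9 and DESeq2. The counting tool and its strand setting are not given in the sources used here. Genes with fewer than 5 counts in a table, and genes with an A' vs B' fold change of 0, are not listed. Gene names matched SolTub_3.0 of RefSeq for 24164 of 24169 genes, and all 141 members had the same start and end there. Products sharing a name can be similar copies.

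From the deposited counts, edgeR 4.0.16 (R 4.3.3) was fitted for each pair of groups separately, with filterByExpr, TMM scaling, robust quasi-likelihood dispersion and Benjamini-Hochberg adjustment over all genes tested. F' vs B' used the 22988 genes in both tables. Alternatives were upper-quartile scaling, DESeq2 1.42.0, no filter, a joint fit of all 9 libraries, the replicate number as a block, a threshold of 0.01 and leaving out each library. The fit was tested on simulated data. The labels do not say whether the replicate numbers pair libraries, and the main fits did not pair them. The members and gene lists were chosen with earlier results of these data known. The rule for named loci took all loci of the smaller families and, for GDSL and nsLTP genes, up to 8 members higher and 8 lower by Log2FC with at least 50 normalized counts in a group, up to 3 with the highest counts, and loci sharing their product. Of the 104 loci that this rule gave, only some are named in the text, and the rule does not fix which. Other marker lists of patatin, flower and dividing-tissue words summed to 2390 to 2966 (F'), 3493 to 5249 (B') and 2998 to 3513 (A') counts for patatin words, 6323 to 6588, 6316 to 6628 and 6112 to 6874 for flower words, and 4847 to 5814, 4073 to 4777 and 3531 to 4615 for dividing-tissue words, in the same order of groups.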

Additional observations from a re-analysis of the deposited data

How the results depend on the processing

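Upper-quartile scaling, no filter and a joint fit of all 9 libraries kept the direction and the call of every Log2FC printed here. DESeq2 did so except at nsLTP LOC102597952 in F' vs A' (−1.26, adjusted p = 0.0659), and the replicate block except where given below. No called value changed sign. At an FDR under 0.01, the members higher in F' vs B' numbered 13 (20 at 0.05) and those lower 24 (37 at 0.05). Over all 19308 genes in F' vs B', 3459 were called at 0.01 in either direction, against 5785 at 0.05. For the other pathway genes at 0.01, 10 were lower in B' vs A' (17 at 0.05) and 5 higher in F' vs B' (13 at 0.05). Over all 19059 genes in B' vs A', 3778 were called at 0.01 in either direction, against 6274 at 0.05. Leaving out 1 library gave 11 to 16 lower other pathway genes in B' vs A' (11 without B' library 2) and 7 to 13 higher ones in F' vs B' (7 without B' library 2 or F' library 1). Leaving out 1 library kept 38 to 48 of the 49 member calls in B' vs A', 53 to 60 of 64 in F' vs A' and 40 to 57 of 57 in F' vs B'. Over all genes these fits called 22.7% to 33.4% in B' vs A', 26.0% to 37.6% in F' vs A' and 20.9% to 32.6% in F' vs B'. Whether the replicate numbers mark pairs was not settled. Deviations of same-numbered libraries correlated at −0.12, 0.32 and 0.34 in F' vs B', and at −0.25 to 0.008 in the comparisons with A'. With the number as a block, 47 members were called in B' vs A', 59 in F' vs A' and 64 in F' vs B', of which 46, 59 and 57 were among the calls above. Over all genes the block called 29.4%, 30.7% and 36.7% in the same order, against 32.9%, 35.6% and 30% without it. KCS6-like LOC102579720 in B' vs A' (Log2FC −0.55, FDR = 0.0531) and KCS11-like LOC102594691 in F' vs A' (−0.72, FDR = 0.0563) lost their calls under the block. Without the 9 products set aside, an alternative chosen after seeing the data, the other pathway genes gave 8 higher and 15 lower in B' vs A', 4 and 17 in F' vs A', and 10 and 13 in F' vs B'. Other products that need not serve the cuticle stayed in that list.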

Other observations

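Among the pathway genes found by product words, several that the report does not name were examined after their values were seen. Cytochrome P450s of the CYP94 family, some of which break down the hormone jasmonate in Arabidopsis while others hydroxylate fatty acids, moved in both directions. CYP94B3-like LOC102586169 had 10.3, 8.51 and 5.80 in F' libraries, 12.0, 18.7 and 19.0 in B' libraries and 42.2, 42.5 and 38.0 in A' libraries, with all F' and B' libraries below A', and was −2.29 ± 0.35 in F' vs A' (FDR = 0.000163) and −1.29 ± 0.30 in B' vs A' (FDR = 0.00604) in edgeR's quasi-likelihood test. CYP94A1-like LOC102582727 had 78.4, 45.8 and 57.0 in F' libraries, 236, 277 and 321 in B' libraries and 55.0, 67.5 and 81.7 in A' libraries, with B' above all other libraries, and was 2.04 ± 0.19 in B' vs A' (FDR = 1.23e-05) and −2.20 ± 0.21 in F' vs B' (FDR = 4.26e-05). CYP94A2-like LOC102604576 had 0, 4.26 and 0 in F' libraries, 0, 0 and 0 in B' libraries and 18.7, 13.1 and 15.0 in A' libraries, so that no B' library held a count.

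B' libraries also stood apart for GPAT1 and for a wax ester synthase. GPAT1 LOC102588361, an acyltransferase, had 90.6, 81.9 and 98.5 in F' libraries, 393, 421 and 432 in B' libraries and 92.5, 128 and 129 in A' libraries, which gave 1.84 ± 0.16 in B' vs A' (FDR = 5.86e-06) and −2.21 ± 0.13 in F' vs B' (FDR = 3.08e-06). WSD1-like LOC102580665 had 312, 251 and 268 in F' libraries, 596, 519 and 708 in B' libraries and 248, 292 and 304 in A' libraries, which gave 1.12 ± 0.15 in B' vs A' (FDR = 0.00015) and −1.14 ± 0.15 in F' vs B' (FDR = 0.00026).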
